A study of Mus musculus with 33 samples.

Results

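The genes of 10 RNA-binding proteins that are best known from neurons were followed through RNA levels and through the crosslinking of their transcripts to hnRNP R. They were taken by name: Rbfox1, Rbfox2, Rbfox3, Celf2, Celf4, Elavl2, Elavl3, Elavl4, Nova1 and Ptbp2, which are 10 of 37926 RNA records and 10 of 36194 genes counted by iCLIP. No measured value entered the choice of names, although earlier results of these data were known when the list was drawn up. Each gene had 1 record in every RNA table.

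These proteins act on the RNAs of other genes. The Rbfox proteins bind short motifs beside alternative exons and set their inclusion, and Rbfox3 is also the antigen known as NeuN, a marker of mature neurons. Nova1 and Ptbp2 regulate neuronal splicing programmes, with Ptbp2 (nPTB) taking the place of Ptbp1 as neurons form, while the CELF proteins act on splicing, stability and translation, and the neuronal Elavl (Hu) proteins bind AU-rich elements, mostly in 3' UTRs and introns. Several of these genes span very long introns, which is where many hnRNP proteins bind.

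The study asked how hnRNP R and the noncoding RNA 7SK, which binds it, shape the RNA content of motoneuron axons. Primary motoneurons of CD-1 mice were cultured in microfluidic chambers that keep axons apart from cell bodies with dendrites, here called cell bodies. The RNA groups were hnRNP R knockdown (3 libraries per compartment), 7SK knockdown (4) and GFP control (4), 22 libraries in all, while no label states how the knockdown was done. In iCLIP, ultraviolet light crosslinks a protein to RNA and the cDNAs recovered with it are counted. The 11 iCLIP libraries held hnRNP R antibody 1 libraries from wild-type motoneurons (2 whole-cell, 1 nuclear, 1 cytoplasmic) and from NSC34, a hybrid mouse line with motoneuron traits (2 whole-cell, 1 nuclear, 1 cytoplasmic), hnRNP R antibody 2 libraries from NSC34 cells (1 nuclear, 1 cytoplasmic) and 1 NSC34 library made with IgG. The labels do not say that replicates came from separate cultures, so a p-value measures the spread between these libraries only, and that spread may be technical.

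The RNA tables hold 1 FPKM value per group (fragments scaled to gene length and library), so neither depth nor replicate spread was available for RNA. The targeted gene Hnrnpr stood at 10.8 FPKM in hnRNP R knockdown cell bodies and 27.2 FPKM in GFP cell bodies in the authors' deposited table, which gave q = 0.310. The axon group labelled 7SK knockdown had more Rn7sk than its control, 3508 against 2708 FPKM in the authors' deposited table, so no direction below is read as an effect of less 7SK in axons. In cell bodies Rn7sk was lower with 7SK knockdown, 6370 against 9104 FPKM in GFP (q = 0.00407), and higher with hnRNP R knockdown, 13493 against 9892 FPKM in GFP (q = 0.00865), in the authors' deposited tables. Some sample descriptions name a table of another group, so groups here follow the sample titles and the group names inside the tables. General neuron markers were all at 1 FPKM or more in every group (8 of 8). Of 10 motoneuron markers 9 had a record, and Chat, Isl2 and Mnx1 were listed at 0 in both compartments of the GFP controls. In the GFP controls of the hnRNP R comparison, 3 of the 9 were at 1 FPKM or more in cell bodies and 2 in axons. The 9 summed to 13.3 FPKM in cell bodies and 5.44 FPKM in axons, in the authors' deposited tables. Summed astrocyte and radial glia markers lay between 447 and 698 FPKM in all groups and compartments of the authors' deposited tables, so these are bulk cultures in which fewer cells of a type and less RNA per cell cannot be told apart. The whole-cell iCLIP libraries held 359005 and 319381 cDNAs from motoneurons, 456721 and 99762 from NSC34 cells and 36280 with IgG. The NSC34 cytoplasmic libraries held only 3569 and 2796, and the shallow libraries limit what can be said of them.

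In GFP control cell bodies the 10 members were well expressed, and Elavl4 stood far above the others. It was listed at 133 FPKM in the authors' deposited table, followed by Elavl3 at 60.8, Elavl2 at 58.7 and Rbfox1 at 46.5 FPKM. The remaining 6 members lay close together, between 23.7 FPKM (Nova1) and 37.1 FPKM (Celf2) in the same authors' deposited table, and with 1 value per group it cannot be said which neighbours in that order differ.

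All 10 members were lower in control axons than in control cell bodies. The order changed with compartment, and Elavl2, not Elavl4, was the most abundant member in axons, at 37.4 FPKM against 58.7 FPKM in cell bodies in the authors' deposited tables. Elavl4 was listed at 22.5 FPKM in axons and 133 FPKM in cell bodies, and Rbfox3 at 5.24 FPKM in axons and 33.3 FPKM in cell bodies, in the authors' deposited tables. These were the members with the lowest axon to cell body ratios, 0.170 for Elavl4 and 0.160 for Rbfox3, computed from the authors' deposited tables. On the log2 scale with 0.1 FPKM added, the members ran from -2.65 (Rbfox3) to -0.65 (Elavl2) with a median of -1.65, from the authors' deposited tables. The median over 13576 records at 1 FPKM or more in either compartment was -0.58, and over the 2531 records at 20 FPKM or more in cell bodies it was -0.84, in the authors' deposited tables. All 10 members lay below the first of these medians, while 70.5% of all records, and 88.9% of those at 20 FPKM or more in cell bodies, were lower in axons than in cell bodies. Every member was itself at 20 FPKM or more in cell bodies, and Elavl2 lay above the median of that set. Axon and cell body values come from tables that were scaled separately, so these ratios carry no test. In the GFP controls of the hnRNP R comparison, neuron markers summed to 677 FPKM in axons and 2391 FPKM in cell bodies. Microglia and macrophage (11.6 and 59.9) and oligodendrocyte markers (24.0 and 83.5) were also lower in axons. Fibroblast and smooth muscle (791 and 122) and astrocyte and radial glia markers (657 and 486) were higher, all from the authors' deposited tables. The part of the mix of cells in the members' ratios was not tested.

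**Figure D1:**
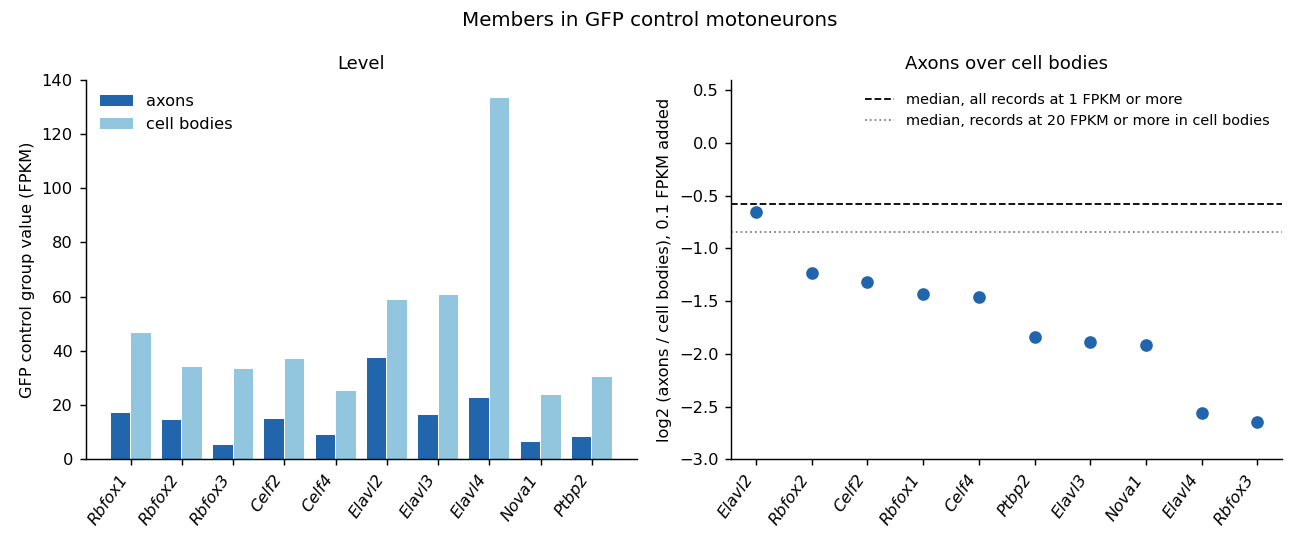
RNA level of each member in GFP control motoneurons, left as FPKM in axons (dark) and cell bodies (light) from the authors' deposited tables, right as the log2 ratio of axons over cell bodies with 0.1 FPKM added, sorted, with the medians of 2 sets of records as lines. Every point lies below the dashed median of all records at -0.58, and Elavl2 at -0.65 lies closest to it.

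In cell bodies after hnRNP R knockdown, 1 of the 10 members, Celf4, passed the authors' q under 0.05, and it was higher. All 10 members had a completed test, and over all 2768 tested records the authors called 0.975% in either direction (0.361% higher, 0.614% lower), so 1 of 10 rests on a single gene. Celf4, which binds mRNAs of synaptic proteins and limits neuronal excitability in mice, stood at 38.6 FPKM in hnRNP R knockdown cell bodies and 25.3 FPKM in GFP cell bodies, a log2 ratio of 0.61 ± 0.17 (SE taken from the authors' p) and q = 0.0346 in the authors' deposited table. The same gene stood at 27.5 FPKM in 7SK knockdown cell bodies and 23.3 FPKM in GFP cell bodies, a log2 ratio of 0.24 and q = 0.550 in the authors' deposited table. The 2 knockdowns share their GFP libraries: the GFP values of the 2 cell body tables differed by a constant factor (median ratio 0.920, 1st to 99th percentile 0.917 to 0.924), so like directions in both are not independent. Whether Celf4 responds differently to the 2 knockdowns was not tested. Celf2, its relative in the same family, was close to its control, with 35.0 FPKM in hnRNP R knockdown and 37.1 FPKM in GFP cell bodies in the authors' deposited table (q = 0.930), and 29.8 FPKM in 7SK knockdown and 34.2 FPKM in GFP (q = 0.781).

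Among the Rbfox genes, none passed in cell bodies. Rbfox2, the most widely expressed of the family, was the nearest to it: 28.2 FPKM in hnRNP R knockdown cell bodies and 34.2 FPKM in GFP, with p = 0.0420 and q = 0.365 in the authors' deposited table. With 7SK knockdown it stood at 23.5 FPKM in cell bodies against 31.5 FPKM in GFP, with p = 0.00710 and q = 0.118 in the authors' deposited table. Rbfox2 was thus below its shared control in both knockdowns, short of the adjusted threshold. Rbfox1, a regulator of exons in ion channel and synaptic genes, stood at 36.9 FPKM in hnRNP R knockdown and 46.5 FPKM in GFP cell bodies (q = 0.618), and at 44.1 FPKM in 7SK knockdown and 42.8 FPKM in GFP cell bodies (q = 0.951), in the authors' deposited tables. Rbfox3 stood at 37.9 against 33.3 FPKM (hnRNP R knockdown against GFP, q = 0.828) and at 28.9 against 30.7 FPKM (7SK knockdown against GFP, q = 0.919) in the authors' deposited tables.

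The Elavl genes encode the Hu proteins HuB (Elavl2), HuC (Elavl3) and HuD (Elavl4), and none passed either. Elavl4 was listed at 80.3 FPKM in 7SK knockdown cell bodies and 123 FPKM in GFP cell bodies, a log2 ratio of -0.61 with p = 0.0216 and q = 0.216 in the authors' deposited table. In hnRNP R knockdown it stood at 111 FPKM and in GFP at 133 FPKM, with q = 0.655 in the authors' deposited table. Elavl4 was the member with the lowest log2 ratio in 7SK knockdown cell bodies, and its unadjusted p is 1 of 2 under 0.05 among the 9 members tested there, where 15.3% of all tested records had such a p (12.3% with hnRNP R knockdown). Elavl2 stood at 37.9 FPKM in 7SK knockdown and 54.1 FPKM in GFP cell bodies (q = 0.443), and was level in the hnRNP R comparison, at 58.8 FPKM in knockdown and 58.7 FPKM in GFP (q = 0.997), in the authors' deposited tables. Elavl3 had log2 ratios of -0.08 and -0.07 in the 2 comparisons, at 57.5 FPKM in hnRNP R knockdown and 60.8 FPKM in GFP, and at 53.2 FPKM in 7SK knockdown and 55.9 FPKM in GFP, in the authors' deposited tables.

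The splicing regulators Nova1 and Ptbp2 also gave no call. Ptbp2 stood at 34.7 FPKM in hnRNP R knockdown and 30.3 FPKM in GFP cell bodies (q = 0.669), and at 22.7 FPKM in 7SK knockdown and 27.9 FPKM in GFP (q = 0.488), in the authors' deposited tables. Nova1 stood at 21.3 FPKM in hnRNP R knockdown and 23.7 FPKM in GFP cell bodies with q = 0.712 in the authors' deposited table, and at 15.8 FPKM in 7SK knockdown and 21.8 FPKM in GFP, where the authors completed no test. Ptbp2 was thus above its control in 1 comparison and below it in the other, Nova1 below it in both, and neither difference passed. In 7SK knockdown cell bodies no member passed the authors' q, against 2.51% of 1954 tested records (1.43% higher, 1.07% lower). The median log2 ratio of the tested members was -0.08 with hnRNP R knockdown (10 members) and -0.19 with 7SK knockdown (9 members) in the authors' deposited tables, against 0.02 and 0.06 over all tested records. Summed oligodendrocyte markers were 120 FPKM in hnRNP R knockdown and 83.5 FPKM in GFP cell bodies in the authors' deposited table, where 1 of 8 neuron markers was higher with hnRNP R knockdown. In 7SK knockdown and GFP cell bodies of the authors' deposited table, neuron markers summed to 1808 and 2200 FPKM, fibroblast and smooth muscle markers to 183 and 112, microglia and macrophage markers to 81.8 and 55.1 and oligodendrocyte markers to 103 and 76.8 FPKM. The part of such shifts in the members' values was not tested.

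**Figure D2:**
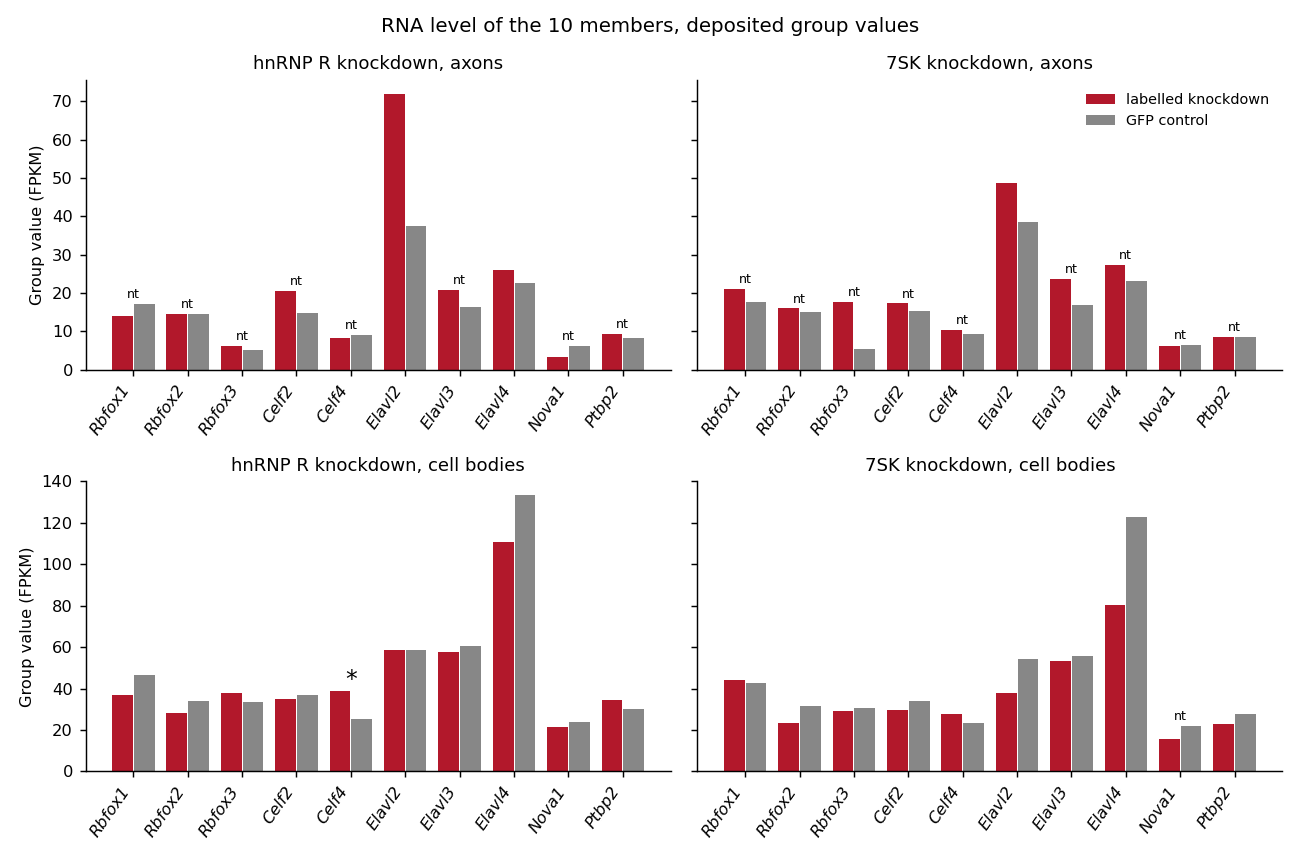
Group FPKM of each member in the authors' deposited tables for the 2 knockdowns (columns) and 2 compartments (rows), with the group labelled knockdown (red) left of the GFP control (grey). The star marks Celf4, the only member with q under 0.05, and "nt" marks a member without a completed test. The axon rows hold mostly "nt".

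In axons most members were too low for the authors' test, and none that was tested passed. Only Elavl2 and Elavl4 were tested with hnRNP R knockdown and only Elavl2 with 7SK knockdown, since the tested records began at 21.8 and 35.5 FPKM in the higher group. Over all tested records the authors called 0.114% with hnRNP R knockdown (2 of 1749, 0.0572% in each direction) and 3.07% with 7SK knockdown (31 of 1009, 2.28% higher and 0.793% lower). None of the tested axonal members had an unadjusted p under 0.05 either, which 9.26% and 18.1% of all tested records had with hnRNP R and 7SK knockdown. Elavl2 stood at 72.0 FPKM in hnRNP R knockdown axons and 37.4 FPKM in GFP axons, a log2 ratio of 0.95 ± 0.56 (SE taken from the authors' p) with p = 0.0937 and q = 0.633 in the authors' deposited table. With 7SK knockdown, as labelled, axons had 48.7 FPKM of Elavl2 against 38.4 FPKM in GFP axons, with q = 0.782 in the authors' deposited table. Elavl4 was at 25.9 FPKM in hnRNP R knockdown axons and 22.5 FPKM in GFP axons, with q = 0.933 in the authors' deposited table.

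The untested members in axons can only be described. Rbfox3 had the widest gap, with 17.8 FPKM in the axon group labelled 7SK knockdown and 5.40 FPKM in GFP axons, a log2 ratio of 1.72 in the authors' deposited table, while in hnRNP R knockdown axons it was at 6.24 FPKM against 5.24 FPKM. Nova1 was listed at 3.42 FPKM in hnRNP R knockdown axons and 6.23 FPKM in GFP axons, and at 6.14 FPKM in the group labelled 7SK knockdown against 6.40 FPKM, in the authors' deposited tables. Celf2 was at 20.6 FPKM in hnRNP R knockdown axons and 14.8 FPKM in GFP axons in the authors' deposited table. All 3 carry no error, so whether these gaps exceed the spread between libraries is unknown. The remaining untested members had log2 ratios between -0.31 and 0.50 in the authors' deposited tables. In the same axon group labelled 7SK knockdown the microglia and macrophage markers summed to 145 FPKM, against 11.8 FPKM in GFP axons, with all 12 higher, and the fibroblast and smooth muscle markers to 346 against 815 FPKM, in the authors' deposited table. General neuron markers summed to 994 FPKM there and 695 FPKM in GFP axons, with 6 of 8 higher. In hnRNP R knockdown and GFP axons neuron markers summed to 765 and 677 FPKM, with 4 of 8 higher. Microglia and macrophage markers summed to 27.1 and 11.6 FPKM there and fibroblast and smooth muscle markers to 1030 and 791 FPKM, in the authors' deposited tables. The part of these shifts in the members' axonal values was not tested.

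The difference of a knockdown's effect between axons and cell bodies could be formed for the members tested on both sides. For Elavl2 the log2 ratio in axons minus that in cell bodies was 0.94 ± 0.62 with hnRNP R knockdown (approximate z test, adjusted p = 0.787) and 0.86 ± 0.63 with 7SK knockdown (adjusted p = 0.607), both from the authors' deposited tables. For Elavl4 it was 0.46 ± 0.65 with hnRNP R knockdown (adjusted p = 0.909), from the authors' deposited tables. No member passed this test. Over all records the z test called 0.0% with hnRNP R knockdown (0 of 1505, with 104 at an unadjusted p under 0.05) and 0.45% with 7SK knockdown (4 of 888).

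Of 37 further RNA-binding protein genes listed beside the members (paralogs and other neuronal regulators of splicing, localisation and translation), none passed the authors' q in any comparison. The authors tested 7 and 2 of them in axons (hnRNP R, then 7SK knockdown) and 15 and 9 in cell bodies. Stau2, a carrier of dendritic mRNAs, was highest among those tested in axons with both knockdowns, at 148 FPKM in hnRNP R knockdown and 78.2 FPKM in GFP axons (q = 0.633) in the authors' deposited table. Pum2, a translational repressor, was lowest with hnRNP R knockdown in axons, at 13.2 FPKM against 22.2 FPKM in GFP (q = 0.681) in the authors' deposited table. Ptbp1, the non-neuronal counterpart of Ptbp2, was at 95.7 FPKM in hnRNP R knockdown axons and 100.2 FPKM in GFP axons (q = 0.980), and at 40.5 FPKM in hnRNP R knockdown and 31.5 FPKM in GFP cell bodies (q = 0.708), in the authors' deposited tables. Ptbp1 was thus listed higher in axons than in cell bodies of the controls. Ptbp2 was the reverse, with control values of 8.37 FPKM in axons and 30.3 FPKM in cell bodies in the authors' deposited tables. The compartments were scaled separately and this contrast carries no test. Fibroblast and smooth muscle and astrocyte and radial glia markers were likewise higher in control axons, and the other marker sets given above were lower. The part of such cells in the Ptbp1 values was not tested. Nova2, the paralog of Nova1, was at 15.6 FPKM in hnRNP R knockdown and 22.0 FPKM in GFP cell bodies, with p = 0.0110 and q = 0.260 in the authors' deposited table. Elavl1 (HuR), the paralog of the neuronal Elavl genes, had no completed test. Among the 15 listed genes tested in hnRNP R knockdown cell bodies the log2 ratios ran from -1.33 (Hnrnpr itself), -0.72 (Msi1) and -0.50 (Nova2) up to 0.25 (Stau2), 0.34 (Qk) and 0.36 (Ptbp1) in the authors' deposited table. Among the 9 tested with 7SK knockdown they ran from -0.33 (Stau1), -0.05 (Fxr2) and 0.22 (Stau2) up to 0.42 (Ptbp1), 0.44 (Fxr1) and 0.48 (Celf5) in cell bodies in the authors' deposited table.

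In iCLIP the members were matched by name, and 5 kept today's symbol. Rbfox1, Rbfox2 and Celf2 were found under the older symbols A2bp1, Rbm9 and Cugbp2, and Nova1 by an identifier joined to its name. Rbfox3 was taken as the record D11Bwg0517e, which lies on the same chromosome with the same neighbouring genes and a span of 421838 bp against 421836 bp. The loci are long, from 37019 bp for Elavl3 (chr9:22015005-22052023, minus strand, GRCm38) and 64647 bp for Ptbp2 (chr3:119718742-119783388, minus strand) to 603258 bp for Rbfox1 (chr16:6809222-7412479, plus strand) and 969870 bp for Celf2 (chr2:6539694-7509563, minus strand). The others are Rbfox2 (chr15:77078990-77307053), Rbfox3 (chr11:118489762-118911597), Celf4 (chr18:25477632-25753983), Elavl2 (chr4:91250763-91400785), Elavl4 (chr4:110203722-110351909) and Nova1 (chr12:46694517-46818775), all on the minus strand in GRCm38. The mm9 annotation behind the iCLIP counts gives Celf2 539434 bp and Elavl3 19886 bp, so cDNAs outside those shorter models are not in their counts. The counts used here are of the sense strand, and antisense cDNAs over the 10 members came to 7 and 6 in the motoneuron libraries, 16 and 11 in the NSC34 libraries and 2 with IgG.

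Together the members held a larger share of hnRNP R cDNAs in motoneurons than in NSC34 cells. They took 1.09% and 1.02% of all cDNAs in the 2 motoneuron libraries and 0.342% and 0.336% in the 2 NSC34 libraries, or 1.06% ± 0.05 and 0.339% ± 0.004 (SD, n = 2 each). The IgG library from NSC34 cells gave 0.322% (exact 95% interval 0.267% to 0.386%), level with hnRNP R in the same cells. Both NSC34 values lie inside that interval. Both motoneuron values lie above it, but the IgG library comes from NSC34 cells and gives no background for motoneurons. Intervals here cover counting error only.

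Rbfox1 and Celf2 made up most of the motoneuron share. As cDNA counts scaled to the library total (CPM), Rbfox1 had 4301 and 3598 CPM in the motoneuron libraries, against 138 and 120 in the NSC34 libraries and 193 with IgG. Without Rbfox1 and Celf2 the members summed to 3905 and 4881 CPM in motoneurons and 3273 and 3208 in NSC34 cells, against 3032 with IgG. Celf2 had 2721 and 1766 CPM in motoneurons, against 8.76 and 30.1 in NSC34 cells (4 and 3 cDNAs). Rbfox3 had 404 and 266 CPM in motoneurons, against 6.57 and 0 in NSC34 cells (3 cDNAs and 0, which allows up to 30.1 CPM in the second library). For these 3 genes the motoneuron and NSC34 libraries were far apart, and with so few NSC34 cDNAs the ratio for Rbfox3 is 62.9 with a 95% counting interval of 21.3 to 307. In edgeR's quasi-likelihood test the log2 ratio of motoneurons over NSC34 cells was 5.83 ± 0.31 for Rbfox1 (adjusted p = 2.94e-21) and 8.31 ± 0.42 for Celf2 (adjusted p = 6.94e-22), and Rbfox3 passed with adjusted p = 1.87e-16. Rbfox2 showed no such gap, with 738 and 874 CPM in motoneurons and 874 and 892 in NSC34 cells, a pooled ratio of 0.914 (95% counting interval 0.808 to 1.04).

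**Figure D3:**
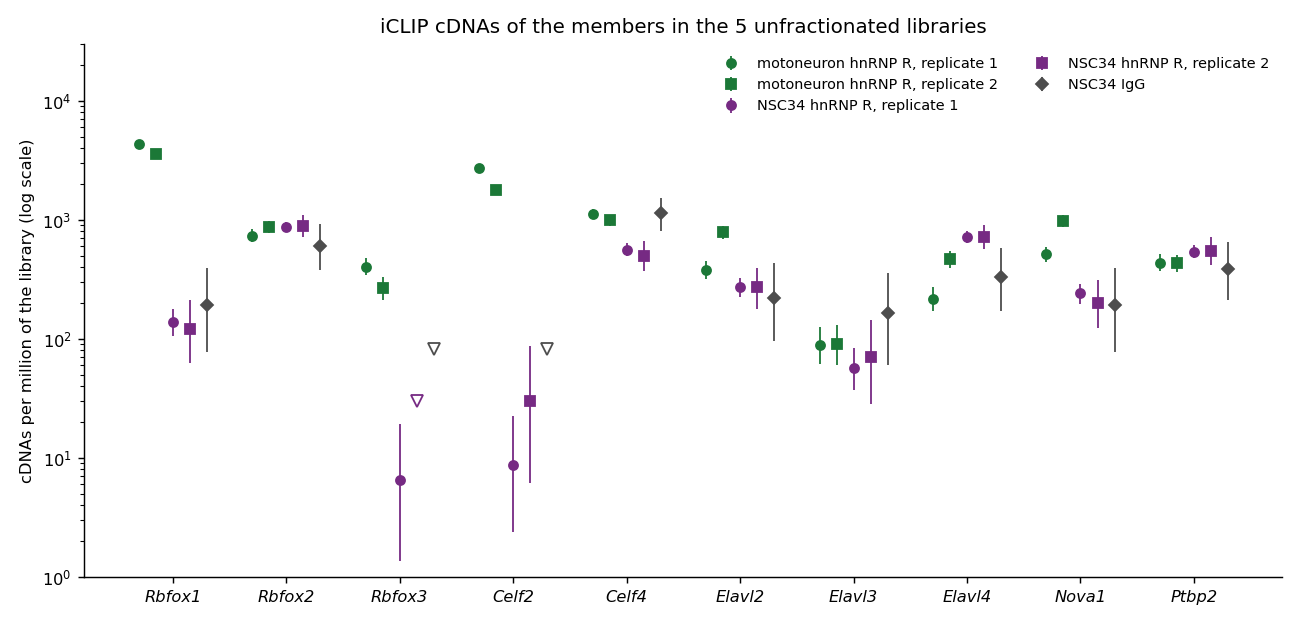
CPM of each member (log scale) in the 2 motoneuron, 2 NSC34 and 1 IgG libraries, with exact 95% intervals; an open triangle stands at the limit that a count of 0 allows. Rbfox1, Rbfox3 and Celf2 separate motoneurons from NSC34 cells most widely, while Rbfox2 and Ptbp2 lie close together and Elavl4 is lower in motoneurons.

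The second tier differed less. Nova1 had 513 and 977 CPM in motoneurons and 241 and 200 in NSC34 cells (log2 ratio 2.62 ± 0.28, adjusted p = 3.87e-11, edgeR). Celf4 had 1125 and 989 CPM in motoneurons and 563 and 501 in NSC34 cells (1.91 ± 0.25, adjusted p = 8.51e-09, edgeR). Elavl2 had 382 and 786 CPM in motoneurons and 271 in each NSC34 library (2.01 ± 0.28, adjusted p = 3.77e-08, edgeR). In all 3 the motoneuron libraries were above the NSC34 libraries, and the 2 motoneuron replicates of Nova1 and Elavl2 were themselves far apart. Elavl3 had few cDNAs in any library, 89.1 and 90.8 CPM in motoneurons and 56.9 and 70.2 in NSC34 cells (1.50 ± 0.40, adjusted p = 0.00204, edgeR).

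Rbfox2, Ptbp2 and Elavl4 ran against the rest on the plain CPM scale. Ptbp2 had 437 and 432 CPM in motoneurons and 541 and 551 in NSC34 cells. Elavl4 had 217 and 467 CPM in motoneurons and 720 and 722 in NSC34 cells. All 3 were lower in motoneurons by this measure. For Rbfox2, however, the higher motoneuron library was level with the lower NSC34 library, and the counting interval of its ratio includes 1. On this scale genes in general lay lower in motoneurons. With library totals the median log2 ratio of all genes was -0.85, with 36.8% called lower and 14.1% higher (edgeR, adjusted p under 0.05).

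In all, 9 of 10 members were called higher in motoneurons under edgeR with TMM scaling, where 23.1% of 9567 genes were called higher and 13.8% lower, and Elavl4 was not called (-0.17 ± 0.26, adjusted p = 0.651). The median log2 ratio was 1.96 over the members and 0.07 over all genes. This count depends on scaling, because library totals moved the median of all genes by -0.92 and upper-quartile scaling by -0.40 relative to TMM. With library totals 14.1% of genes were called higher and 36.8% lower, and the members split into 6 higher and 1 lower (Elavl4). Upper-quartile scaling called 18.1% higher and 22.1% lower, with 7 members higher and Elavl4 lower, and DESeq2 called 11.9% higher and 4.05% lower, with 7 members higher. The direction of Rbfox2 and Ptbp2 was positive under TMM (0.79 and 0.60), DESeq2 and upper-quartile scaling and negative under library totals (-0.13 and -0.33). Relative to the median of all genes, all 4 scalings gave nearly the same values: between 0.69 and 0.72 for Rbfox2, 0.50 and 0.53 for Ptbp2, -0.27 and -0.23 for Elavl4, and 1.37 and 1.43 for Elavl3. Because a scaling shifts all genes nearly alike, this likeness is largely built in and does not decide between the scalings. Leaving out 1 library also moved the calls. Without NSC34 replicate 1 or 2, Rbfox2 and Ptbp2 were lost both times and Elavl3 was lost without replicate 1. Without motoneuron replicate 1 Ptbp2 was lost and Elavl4 turned to 0.15, and without motoneuron replicate 2 Elavl4 was lower (-0.87). Each of these fits leaves 1 library in a group. The 6 genes Rbfox1, Rbfox3, Celf2, Celf4, Elavl2 and Nova1 were called higher under all 4. RNA levels of NSC34 cells were not analysed here, so cDNA counts of the 2 cells could not be set against how much of each RNA they hold.

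**Figure D4:**
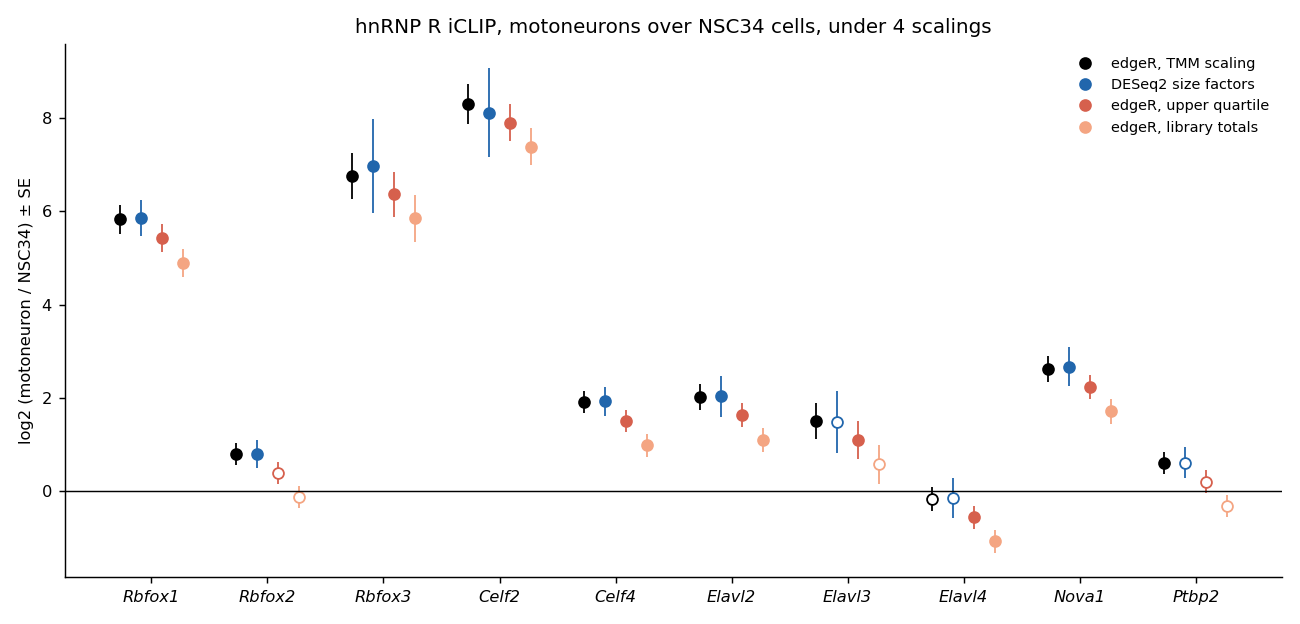
log2 ratio of hnRNP R iCLIP cDNAs in motoneurons over NSC34 cells (± SE) for each member under 4 scalings, with filled points for an adjusted p under 0.05. Rbfox1, Rbfox3, Celf2, Celf4, Elavl2 and Nova1 stay above 0 and filled throughout; Rbfox2 and Ptbp2 cross 0 with library totals, and Elavl4 is filled only below 0.

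Against IgG in NSC34 cells no member was called. The test called 0.429% of 9567 genes in either direction (0.136% higher, 0.293% lower), and DESeq2 called 11; 3 members had an unadjusted p under 0.05, as did 980 of all genes. Elavl4 had 720 and 722 CPM with hnRNP R antibody and 331 with IgG (log2 ratio 1.40 ± 0.47, adjusted p = 0.224, edgeR). Rbfox2 had 874 and 892 CPM with hnRNP R antibody and 606 with IgG (0.81 ± 0.38, adjusted p = 0.440, edgeR). Celf4 lay the other way, with 563 and 501 CPM with hnRNP R antibody and 1130 with IgG (-0.80 ± 0.35, adjusted p = 0.396, edgeR), the highest of the members in the IgG library. By CPM Rbfox2, Elavl2, Elavl4, Nova1 and Ptbp2 were above IgG in both NSC34 libraries and Rbfox1, Celf4 and Elavl3 below it in both. The shares of all genes above or below IgG in this way were not counted, so the split is not read as a trait of the members. Over all genes the median log2 ratio against IgG was 0.37 (edgeR). Celf2 and Rbfox3 had 0 cDNAs with IgG, which allows up to 82.7 CPM, more than either had in NSC34 cells, so they could not be placed. There is 1 IgG library, it comes from NSC34 cells only, and its header names hnRNP R as the protein, so only its title marks it as IgG. For motoneurons no IgG library was analysed here, and the motoneuron counts therefore have no background of their own.

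Set per length of gene, the order of the members changed. In motoneurons Ptbp2 had 676 CPM per 100 kb of locus, Rbfox1 656, Nova1 617 and Elavl3 452 (means of 2 libraries). Celf2 (416), Elavl2 (391), Celf4 (384) and Rbfox2 (359) followed, then Elavl4 (231), with Rbfox3 last at 79.4. The median of 6020 genes of at least 10 kb with 10 or more motoneuron cDNAs was 102, so 9 members were above it and Rbfox3 below it. From Ptbp2 down to Rbfox2 every pair of neighbours had overlapping replicate values, while Elavl4 (147 and 315) lay below both Rbfox2 libraries (329 and 390) and Rbfox3 (95.7 and 63.1) below both Elavl4 libraries. The order by density was not the order by RNA level. Elavl4, the most abundant of these RNAs in control cell bodies, ranked 9th by cDNA density. Nova1, the least abundant, ranked 3rd by its mean, with 424 and 809 CPM per 100 kb in the 2 motoneuron libraries. Most cDNAs of the members were intronic, so density over the locus and FPKM may not measure the same RNA. These RNA levels are of GFP control cultures in the authors' deposited table and the iCLIP libraries are of wild-type motoneurons, in other cultures.

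Most cDNAs of the members fell in introns. Introns held 94.2% and 92.3% of the members' cDNAs in motoneurons and 89.3% in each NSC34 library, against 88.1% and 86.5% over all genes in motoneurons and 77.3% and 70.7% in NSC34 cells. With IgG they held 94.9% of the members' cDNAs against 76.2% over all genes, a share as high as with the hnRNP R antibody. For Rbfox1, Rbfox3 and Celf4 the 3' UTR held 1.37%, 0.435% and 1.39% of the motoneuron cDNAs, both libraries summed, and for Rbfox2 4.04%. For the 3 Elavl genes it held more: 22.9% for Elavl2 (89 of 388 cDNAs), 18.0% for Elavl3 (11 of 61) and 24.7% for Elavl4 (56 of 227). Ptbp2 (10.5%), Nova1 (9.07%) and Celf2 (7.20%) lay between. The Elavl genes have shorter introns in sum than Rbfox1 or Celf2, so shares alone do not compare binding.

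Per kilobase the same contrast remained for Elavl2 and Elavl4. Elavl2 had 38.4 cDNAs per kb of 3' UTR and 2.02 per kb of intron in motoneurons, a ratio of 19.0, and Elavl4 had 21.1 and 1.18 per kb, a ratio of 17.9. The median ratio over 887 genes with 10 or more cDNAs in both segments was 5.67, and 94.4% and 93.1% of these genes lay below Elavl2 and Elavl4. The other 7 members that could be placed ranged from 4.93 (Rbfox1) to 9.25 (Celf2). Celf2 lay above 76.0% of the genes, Rbfox1 above 43.0% and Elavl3 above 54.1%, so Elavl3 did not share the high ratio of Elavl2 and Elavl4. In single motoneuron libraries Elavl2 had ratios of 14.6 and 21.6 and Elavl4 of 24.4 and 14.9, against medians of 5.65 and 7.65. In NSC34 cells Elavl2 and Elavl4 had ratios of 12.8 and 13.6 against a median of 5.81 over 1242 genes, above 82.4% and 84.4% of them. Rbfox2 lay low there, at 3.09. In the less deep NSC34 replicate only Elavl4 and Ptbp2 could be placed, at ratios of 9.30 and 10.3 against a median of 8.59 over 84 genes, so Elavl4 did not stand apart there. These ratios are descriptions, and binding and the amount of spliced against unspliced RNA cannot be told apart in them.

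**Figure D5:**
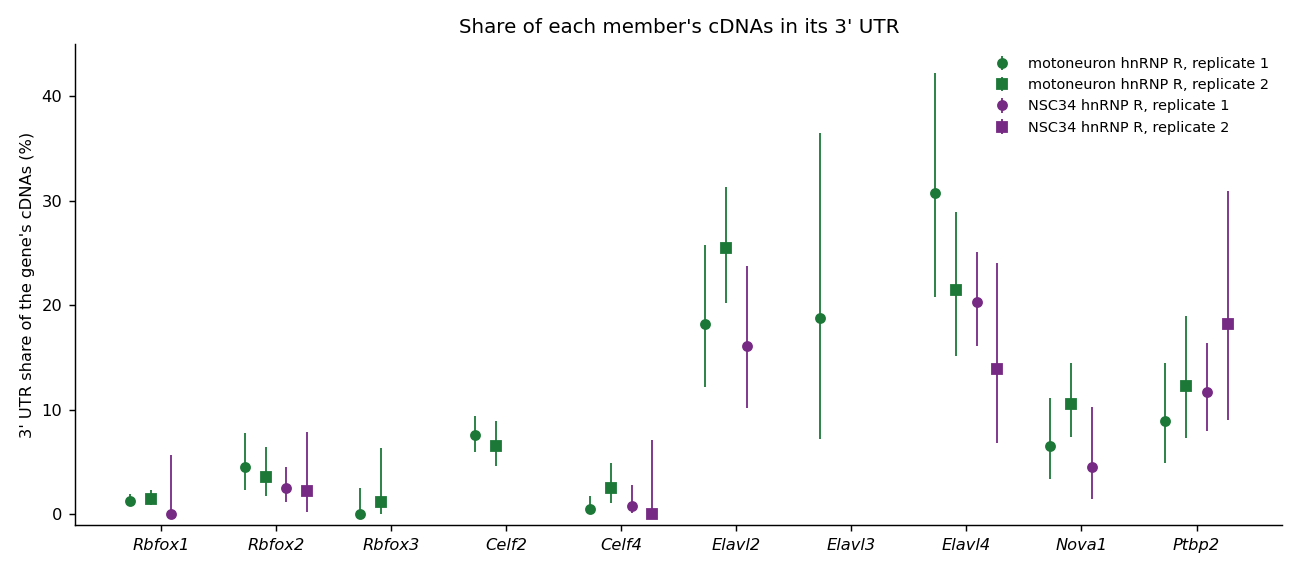
Share of each member's cDNAs in its 3' UTR, with exact 95% intervals, in the whole-cell motoneuron and NSC34 libraries. Points are drawn where the gene had 30 or more cDNAs. Elavl2, Elavl3 and Elavl4 lie between 13.9% and 30.8%, while Rbfox1, Rbfox3 and Celf4 reach 2.53% at most. Fractions are not drawn: Elavl2 had 5.13% in the motoneuron nuclear library (2 of 39 cDNAs) and Elavl4 7.69% in the antibody 1 NSC34 nuclear library (3 of 39). In the motoneuron cytoplasmic library they had 18.1% and 17.7%.

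No member was called between nuclear and cytoplasmic hnRNP R libraries. The paired edgeR fit of 3 nuclear and 3 cytoplasmic libraries called 0.0% of 5177 genes (27 at an unadjusted p under 0.05, 3 called by DESeq2), and every member had an adjusted p of 1. In that fit 8 members had a positive log2 ratio of nuclear over cytoplasmic libraries and 2 a negative one, with a median of 1.23 against 0.67 over all genes. By CPM the counts ran the other way in the motoneuron pair, the only one deep enough to describe. There 7 members had a lower CPM in the nuclear than in the cytoplasmic library and 3 had a higher one. The share of all genes lower in that nuclear library was not counted, so this split is not read as a trait of the members. Rbfox3 had 821 CPM in the nuclear and 205 in the cytoplasmic library, Celf4 1413 in the nuclear and 944 in the cytoplasmic, and Elavl4 131 in the nuclear and 318 in the cytoplasmic. The cytoplasmic motoneuron library was itself 87.5% intronic over all genes, close to the whole-cell libraries. The 3' UTR share of the members was 1.80% in the nuclear and 5.70% in the cytoplasmic motoneuron library. In NSC34 cells antibody 1 gave a single member cDNA in the cytoplasmic library (Elavl3, in its 3' UTR), where a count of 0 allows up to 841 CPM. With antibody 2 the cytoplasmic library held 17 member cDNAs, of which 12 were Elavl4 cDNAs, all in its 3' UTR at 6 positions, while the nuclear library held 7 Elavl4 cDNAs, all in introns. That is 4292 CPM in the cytoplasmic library (exact 95% interval 2220 to 7485) and 934 in the nuclear library (376 to 1924), in 1 library each.

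Of the 37 further RNA-binding protein genes, 35 could be tested between motoneurons and NSC34 cells, 14 were called higher and 4 lower, with a median log2 ratio of 0.31. Over all 9567 genes 23.1% were called higher and 13.8% lower. Khdrbs2 (SLM-1), a neuronal splicing regulator, had 276 and 351 cDNAs in motoneurons and 1 in each NSC34 library. Its log2 ratio of 8.69 ± 0.47 (adjusted p = 4.17e-21, edgeR) was as wide as that of Celf2 (8.31) and wider than that of Rbfox1 (5.83). So gaps of this size were not particular to the members. Celf5 and Celf6 were called higher like Celf2 and Celf4, with log2 ratios of 3.17 and 3.05, and so was Celf1 (0.70 ± 0.26, adjusted p = 0.0297, edgeR), whereas Celf3 was not (0.08). With library totals Celf1 was -0.23 and Srrm4 -0.22. There 7 genes of the list were called higher and 16 lower, against 14.1% and 36.8% of all genes. Upper-quartile scaling called 11 higher and 8 lower, against 18.1% and 22.1% of all genes. DESeq2 called 7 higher and 1 lower, against 11.9% and 4.05%. Khdrbs2, Khdrbs3, Cpeb3 and Stau2 were called higher and Cpeb1 lower under all 4, a comparison chosen after seeing the data. Nova2 was called higher (1.70 ± 0.44, adjusted p = 0.00151, edgeR), Elavl1 was not called (-0.07 ± 0.33) except as lower with library totals (adjusted p = 0.00716), and Ptbp1 was negative and not called (-1.42 ± 0.63, adjusted p = 0.0711, edgeR). The others called higher were Srrm4, Khdrbs3, Qk, Raver2, Cpeb2, Cpeb3, Igf2bp3, Stau2 and Syncrip, and those called lower were Cpeb1 (-1.80), Raver1 (-1.44), Ptbp3 (-1.11) and Mbnl1 (-0.83). Raver2 had 7 and 6 cDNAs in motoneurons and 0 in both NSC34 libraries. Against IgG, Mbnl1 alone of the list was called, with 379 and 70 cDNAs with hnRNP R antibody and 6 with IgG (log2 ratio 2.50 ± 0.51, adjusted p = 0.00545, edgeR). Nova2, Celf6 and Ptbp1 were lowest against IgG (-2.25, -1.96 and -1.92) and not called, and Cpeb1 (2.76 ± 0.81) was not called either. Fxr2 and Celf5 had higher fitted values only against 0 cDNAs with IgG, so they are not ranked. Between fractions 32 genes of the list were tested and none was called, with Khdrbs2 (-1.25), Srrm3 (-0.91) and Ptbp3 (-0.86) lowest and Fxr2 (2.02) and Raver1 (1.84) among the highest.

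Across the 10 hnRNP R libraries, Nrp1, Magi2, Samd12, Dock3 and Mllt3 had profiles most like that of the summed members, with Pearson r from 0.968 to 0.991 on log2(CPM + 1). They were the highest of 1701 genes with at least 200 cDNAs, over which the median r was 0.56. The libraries share cells and antibodies and differ greatly in depth, so these values are descriptions without a test.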

How the data were processed

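RNA was measured in 22 libraries and hnRNP R or IgG iCLIP in 11. The authors deposited group values in FPKM with a log2 fold change, a test statistic (a score), a p-value and a q-value per record, made on GRCm38, and the submitters' processing notes name FastQC 0.10.1 and Cufflinks 2.2.1. No source used here names the aligner. The iCLIP tables hold cDNA counts per gene and segment and a density signal per segment, on mm9 with Ensembl 59, per the file headers. The density was used only to recover segment lengths, and blank cells were read as 0.

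The authors' tests were used for RNA, with a standard error taken from each p. cDNA counts were tested with edgeR 4.0.16 (quasi-likelihood, TMM, at least 10 cDNAs over the fitted libraries, Benjamini-Hochberg adjustment over all genes) in R 4.3.3, with DESeq2 1.42.0 as an alternative. The motoneuron and IgG comparisons share 1 fit of the 5 whole-cell libraries, and the fractions were fitted with a block for each of 3 pairs. Scripts were tested on simulated data. CPM values divide by all cDNAs assigned to genes, and intervals are exact at 95%. A count of 0 was read as allowing up to 3 cDNAs. A further 1177 per-library columns of the iCLIP tables were not used.

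The members and lists were chosen with earlier results of these data known. All members are named, with the called genes, the 3 highest, the 3 lowest and the direct paralogs of the related list, and the 5 genes with the most similar iCLIP profile. The result of 1 gene under this rule is not reported here. Protein sequences and a genome were not used here.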

Additional observations from a re-analysis of the deposited data

How the results depend on the processing

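No paired analysis was possible because the RNA tables hold group values only. For iCLIP, replicate numbers did not pair motoneurons with NSC34 cells (correlation of deviations -0.0188 over 2664 genes). With the replicate block 8 members were called instead of 9, and without any block on the same 4 libraries 8 as well, over all genes 1880 higher and 1237 lower against 2054 and 1516. At an unadjusted p under 0.05, 2 members rather than 1 passed in hnRNP R knockdown cell bodies, and 2 rather than 0 in 7SK knockdown cell bodies. Of all tested records 12.3% and 15.3% had such a p. Recentring on all tested records turned Elavl2 with hnRNP R knockdown to -0.016 and Rbfox1 with 7SK knockdown to -0.016 in cell bodies. The median axon to cell body log2 ratio, -1.65, was -1.56 with 1 FPKM added, -1.49 from the 7SK tables and -1.07 after recentring. For motoneurons against NSC34 cells, library totals turned Rbfox2 to -0.13 and Ptbp2 to -0.33, and Elavl4 turned to 0.17 on exonic cDNAs and 0.15 without motoneuron replicate 1 (-0.87 without replicate 2). Leaving out 1 replicate moved the calls of Rbfox2, Ptbp2, Elavl3 and Elavl4 as given above, where the lone sample is assumed to vary like the other groups. Other settings called 6 of 9 tested members (exonic) to 8 of 10 (intronic, or upper quartile with Elavl4 as lower). Over all genes, exonic cDNAs gave 619 higher and 376 lower of 4052, and intronic cDNAs 1929 and 1176 of 8385. Upper-quartile scaling called 18.1% of all genes higher and 22.1% lower. Celf4 against IgG was 3.14 ± 4.47 on exonic cDNAs, a value fitted against 0 cDNAs with IgG that gives no direction. No member was called against IgG or between fractions under any setting run, and upper-quartile scaling could not be run for fractions because that quartile is 0 in the NSC34 cytoplasmic libraries. Without the motoneuron pair 6 of 1642 genes were called lower between fractions. The NSC34 share was 3708 CPM without small RNA genes, against 3389, and its intronic share 91.3% as a median over members, against 89.3%. Leaving out a replicate moved the motoneuron share between 10245 and 10927 CPM and the NSC34 share between 3358 and 3420. The cause of these shifts was not tested.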

Other observations

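A second Nova1 record of the iCLIP annotation held 2 and 4 cDNAs in the motoneuron whole-cell libraries and 1 in the cytoplasmic one, and was kept apart from the record used. Over 50 values of a member in a library with 30 or more cDNAs, cDNAs per crosslink position had a median of 1.06 and lay between 1.00 and 1.21. The 3' UTR held 1.71% of the members' cDNAs in the IgG library (2 of 117), against 8.77% and 9.25% in the NSC34 hnRNP R libraries. Over all genes it held 7.39% with IgG and 9.29% and 9.23% in those libraries. The mix of members also differed: the mostly intronic Celf4 gave 41 of the 117 cDNAs with IgG, against 257 of 1562 and 50 of 335. The part of this mix in the shares was not tested.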
